A study of Mus musculus with 2 samples.

Results

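The 8 genes described here are Cd4, Krt83, Tmem132c, Pard3, Bend4, Impa2, Agpat4 and Adam8, 8 of the 17238 genes in the deposited count table. They were chosen from earlier results of the same libraries, in which they marked CCR6+ lymphoid tissue inducer-like (LTi-like) cells of the colon, so their levels are given as a description and no test is made of them. For each gene both the level and the detection cell by cell were read, in cells with at least 1 unique molecular identifier (UMI) of Ccr6, Ccr7 or Ncr1. The colon library came from the colon of C57BL/6 mice aged 8 weeks, and the small intestine library from the small intestine of mice of the same strain and age. Each library was a single pool of 8 mice that the titles call fed, and in both the cells had been sorted as IL7ra+ innate lymphoid cells (ILCs) and run on 10x 3′ v2 chemistry.

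ILCs are lymphocytes without a rearranged antigen receptor. LTi-like cells, a subset of the interleukin 22 producing group ILC3, carry the chemokine receptor CCR6 and help to build and maintain lymphoid tissue in the gut wall through lymphotoxin and RANKL. In the mouse a fraction of LTi-like cells also carries CD4, the co-receptor for class II MHC that is best known from helper T cells. Ccr7 encodes the receptor that leads lymphocytes to lymph nodes, and Ncr1 encodes NKp46, a marker of natural killer cells, ILC1 and the NCR+ branch of ILC3.

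The table held 7549 colon cells with 22332691 UMIs and 5490 small intestine cells with 15080081 UMIs, and the median cell had 2600 and 2579 UMIs. A Ccr6 UMI was found in 357 colon cells and 541 small intestine cells, a Ccr7 UMI in 757 and 129, and an Ncr1 UMI in 665 and 1605. Colon Ccr6 cells were deeper, with a median of 3443 UMIs against 2366 in the small intestine, and 50.7% of them had a Ccr7 UMI, against 5.55% of those from the small intestine. The sort had left T cell transcripts: a UMI of Cd3e, Cd3d, Cd3g, Trac or Trdc was present in 39.1% of colon cells and 18.5% of small intestine cells, and in 29.7% and 8.32% of their Ccr6 cells. The libraries shared 60 barcodes, against 56.2 that chance would give, and 7 of the cells concerned were Ccr6 cells. Free RNA, profiled in barcodes of 10 to 50 UMIs, made up an estimated 8.25% of the UMIs of colon cells and 5.36% of those of small intestine cells.

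In both tissues the 12 LTi-like markers, among them the gate gene Ccr6, had a higher sum in Ccr6 than in Ncr1 cells. All 12 had UMIs in the Ccr6 cells of both tissues, but also in the Ncr1 cells of both, so detection alone does not name the gate. The summed level was 11128 CPM (UMIs of a gene scaled to a common total over all genes) in colon Ccr6 cells against 5007 CPM in colon Ncr1 cells. In the small intestine it was 12724 CPM in Ccr6 cells and 6632 CPM in Ncr1 cells. Il22, which encodes interleukin 22, was at 6851 CPM in colon and 7430 CPM in small intestine Ccr6 cells. Of the 10 T cell markers, 8 had UMIs in colon and 7 in small intestine Ccr6 cells, with Cd8a and Themis at 0 in both, and they summed to 1100 and 959 CPM. Trbc1 and Trbc2, receptor constant genes also transcribed in ILCs, gave 279 and 378 CPM of the colon sum. The 5 stress genes summed to 3292 CPM in colon against 6307 CPM in small intestine Ccr6 cells. The part of these differences in the levels below was not tested, beyond the alternatives named beside them.

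Promoter sequences were available in RefSeq on GRCm38.p6 for 5 of the 8 genes, as windows of 250 bases before to 50 bases after the annotated start. They are shown for Tmem132c and Bend4, most of whose positive colon cells had a Ccr6 or Ccr7 UMI, and for Adam8, most of whose positive cells had neither. The Tmem132c window lies at chr5:127241576-127241875 on the plus strand, Bend4 at chr5:67427750-67428049 on the minus strand and Adam8 at chr7:139992513-139992812 on the minus strand. Each is printed 5′ to 3′ along its gene, and capitals mark CpG pairs.
Tmem132c: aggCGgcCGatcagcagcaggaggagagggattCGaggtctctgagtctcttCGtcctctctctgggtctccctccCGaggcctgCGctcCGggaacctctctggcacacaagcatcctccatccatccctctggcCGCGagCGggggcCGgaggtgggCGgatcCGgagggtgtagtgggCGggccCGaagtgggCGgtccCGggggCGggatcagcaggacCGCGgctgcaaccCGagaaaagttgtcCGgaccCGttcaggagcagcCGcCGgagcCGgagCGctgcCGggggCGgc
Bend4: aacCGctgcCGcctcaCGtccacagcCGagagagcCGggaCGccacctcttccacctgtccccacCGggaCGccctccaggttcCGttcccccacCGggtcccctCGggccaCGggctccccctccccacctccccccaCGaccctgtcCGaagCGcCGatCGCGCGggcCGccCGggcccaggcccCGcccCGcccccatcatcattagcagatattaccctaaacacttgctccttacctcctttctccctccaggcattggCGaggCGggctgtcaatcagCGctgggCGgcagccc
Adam8: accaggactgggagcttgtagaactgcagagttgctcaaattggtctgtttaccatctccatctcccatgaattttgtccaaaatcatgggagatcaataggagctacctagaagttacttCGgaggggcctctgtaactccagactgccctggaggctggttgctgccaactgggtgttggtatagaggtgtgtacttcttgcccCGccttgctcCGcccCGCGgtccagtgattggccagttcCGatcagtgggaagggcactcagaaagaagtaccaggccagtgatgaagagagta

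The Tmem132c and Bend4 windows were CpG-rich, with 29 and 27 CpG pairs and 70.3% G and C each. The Adam8 window had 6 CpG pairs and 52.3% G and C, close to the medians of all promoter windows in the table, 7 pairs and 52.7%. Pard3 had 2 listed starts, with 42 and 5 CpG pairs, and Agpat4 had 11. The RUNX core TGTGGT, searched on both strands, had 0 matches in the 6 windows that were read, and 16.8% of 32851 promoter windows of the same length held it.

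In GENCODE vM21 on mm10 the genes lie on 7 chromosomes, so that Tmem132c and Bend4 alone share one. Cd4 spans chr6:124864692-124888221 on the minus strand, Krt83 chr15:101485130-101491512 on the minus strand and Adam8 chr7:139978932-139992562 on the minus strand. Tmem132c spans chr5:127241808-127565793 on the plus strand and Bend4 chr5:67392147-67428310 on the minus strand. Pard3 spans chr8:127063893-127612286, Agpat4 chr17:12118704-12219645 and Impa2 chr18:67289186-67322472, all on the plus strand. All 8 are protein coding.

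All 8 genes were at a higher level in Ccr6 cells of the colon than in those of the small intestine. Impa2, an inositol monophosphatase, showed the largest ratio, and Krt83, a hair keratin, the highest colon level. Cd4 and Bend4 showed the smallest ratios. Of the 8 genes, 8 were at least 2-fold higher in the colon, with a median log2 ratio of 2.03, and 3.4% of the 8371 genes with at least 20 UMIs over both libraries were, with a median of -0.18 over all of them. Since the genes were chosen on this contrast, nothing is read from that count.

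Cd4 had 314 UMIs in the 357 colon Ccr6 cells, a level of 192 CPM, against 121 UMIs and 86.9 CPM in the 541 small intestine Ccr6 cells. The ratio was 2.21, with a 95% interval of 1.79 to 2.75. Here and below, intervals are exact Poisson for levels, exact conditional binomial for ratios and Clopper-Pearson for shares, and they cover counting error only, not the spread between mice or libraries. Cd4-positive colon Ccr6 cells held 2.29 UMIs each on average and at most 18, against 1.66 and at most 6 in the small intestine.

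Krt83 encodes a type II keratin known from hair. It was at 290 CPM in colon Ccr6 cells and 38.1 CPM in small intestine Ccr6 cells, a ratio of 7.62 (5.73 to 10.3). Pard3, the scaffold of the PAR polarity complex that binds PAR6 and atypical protein kinase C, was at 136 CPM in the colon against 17.2 CPM in the small intestine, a ratio of 7.89 (5.16 to 12.6). Tmem132c, a single-pass membrane protein of the TMEM132 family, gave 48.4 CPM in the colon against 7.90 CPM in the small intestine, a ratio of 6.12 (3.24 to 12.8) from 79 and 11 UMIs. All 3 were at low levels in small intestine Ccr6 cells, and the intervals of their colon and small intestine levels were far apart.

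Impa2, which removes phosphate from inositol monophosphate, was at 94.9 CPM in colon Ccr6 cells, against 8.62 CPM from 12 UMIs in the small intestine, a ratio of 11.0 (6.13 to 21.8). Agpat4, an acyltransferase that makes phosphatidic acid from lysophosphatidic acid, was at 64.3 CPM in the colon against 23.7 CPM in the small intestine, a ratio of 2.71 (1.82 to 4.14). Adam8, a membrane metalloprotease of leukocytes, was at 85.1 CPM in the colon against 33.8 CPM in the small intestine, a ratio of 2.52 (1.80 to 3.59). Bend4, which carries a BEN domain, a fold that binds DNA or chromatin in other proteins, was at 44.7 CPM in the colon against 20.8 CPM in the small intestine, a ratio of 2.15 (1.38 to 3.42). The last 3 ratios lay near 2-fold, with lower interval bounds under 2. When the gate genes and the 8 genes were counted after every cell had been thinned to 1000 UMIs, Bend4 kept 4 UMIs in the colon and 7 in the small intestine, under the minimum of 20 over both, with a ratio of 1.31 (0.281 to 5.16). Adam8 kept 8 and 12 UMIs, with a ratio of 1.53 (0.542 to 4.07), and neither interval sets a close limit.

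**Figure D1:**
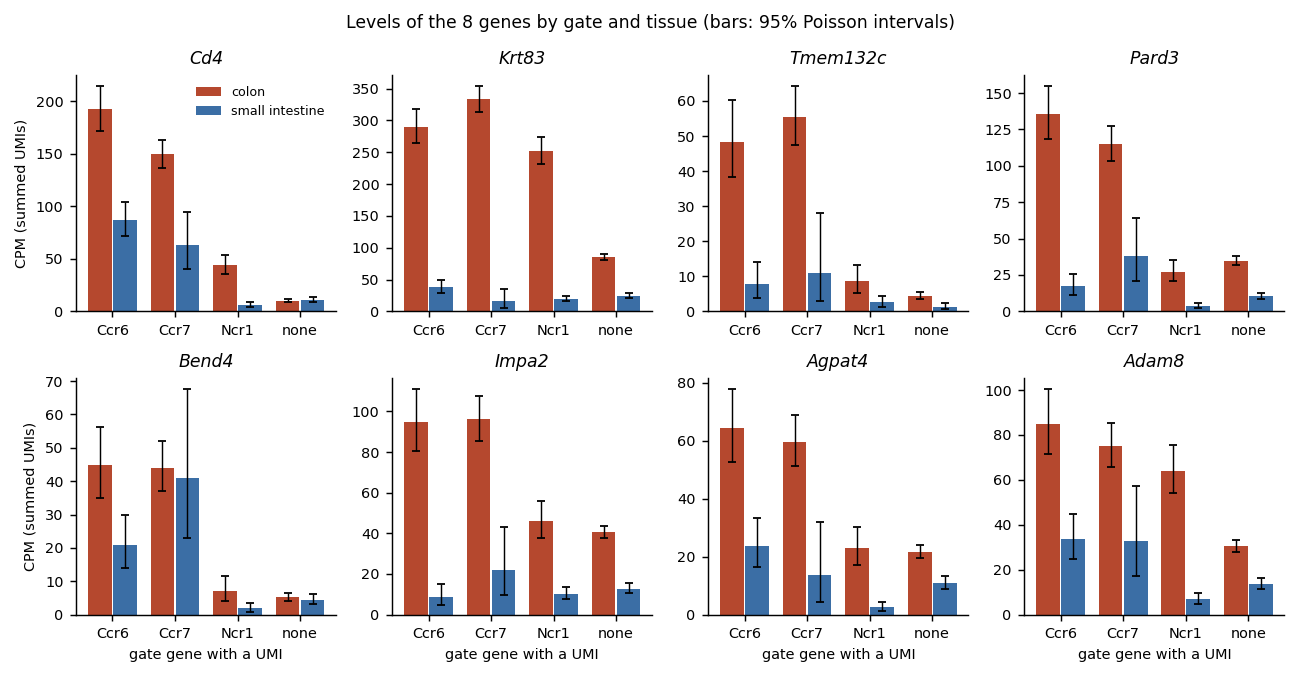
Level in CPM of summed UMIs (vertical axes, each from 0) of the 8 genes in cells with a Ccr6, Ccr7 or Ncr1 UMI and in cells with none of them, colon in red and small intestine in blue, with 95% Poisson intervals. Cd4, Tmem132c, Pard3 and Bend4 are high in the Ccr6 and Ccr7 bars of the colon and low in the Ncr1 bars, while Krt83 is at 290, 334 and 252 CPM in the 3 colon gates.

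In Ccr7 cells 7 of the 8 genes were at least 2-fold higher in the colon, where 7.72% of 8446 genes were. Krt83 stood furthest apart, at 334 CPM in 757 colon Ccr7 cells against 16.4 CPM, from 6 UMIs, in 129 small intestine Ccr7 cells, a ratio of 20.3 (9.31 to 55.6). Cd4 was at 149 CPM in the colon against 62.9 CPM in the small intestine, a ratio of 2.38 (1.56 to 3.79), and Impa2 at 96.2 CPM and 21.9 CPM, a ratio of 4.40 (2.20 to 10.3). Bend4 was the exception, at 44.0 CPM in colon and 41.0 CPM in small intestine Ccr7 cells, a ratio of 1.07 with an interval of 0.628 to 1.97. The T cell list summed to 3505 CPM in small intestine Ccr7 cells, with all 10 genes detected, against 1342 CPM in colon Ccr7 cells, with Cd8a at 0. In small intestine Ccr7 cells 41.1% had a T cell marker UMI, against 34.9% in the colon. Without such cells the log2 ratio of Bend4 was 1.48, against 0.10 with them. It then rested on 4 small intestine UMIs, with a ratio of 2.79 (1.05 to 10.5). Cd4 and Adam8 fell under 2-fold without these cells, to 1.75 (1.15 to 2.80) and 1.82 (0.964 to 3.88). Krt83, Tmem132c, Pard3, Impa2 and Agpat4 stayed above 2-fold. The small intestine gate held so few cells that Tmem132c, Agpat4 and Krt83 rested on 4 to 6 UMIs there.

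Ncr1 cells gave ratios as large, at lower levels. Marker lists of other cell types differed between the tissues too. The B and plasma cell list summed to 114 CPM in colon Ncr1 cells, with Cd79a and Ms4a1 at 0, against 2869 CPM in small intestine Ncr1 cells, with Ms4a1 at 0. The ILC1 and NK cell list summed to 1246 CPM against 880 CPM, with 6 of 7 genes detected and Eomes at 0 in both. In Ccr6 cells the B and plasma cell sums were 127 CPM in the colon against 435 CPM in the small intestine, with Cd79a and Ms4a1 at 0 in both, and in Ccr7 cells 914 CPM against 361 CPM. The part of these cell types in the ratios was not tested. All 8 genes were at least 2-fold higher in the colon, where 4.13% of 9686 genes were, and the median log2 ratio was 2.82. Krt83 was at 252 CPM in 665 colon Ncr1 cells and 20.02 CPM in 1605 small intestine Ncr1 cells, a ratio of 12.6 (10.1 to 15.8). Adam8 was at 64.1 CPM in the colon against 6.96 CPM in the small intestine, a ratio of 9.22 (6.28 to 13.9). Cd4 was at 43.9 CPM in the colon against 6.32 CPM in the small intestine, a ratio of 6.95 (4.57 to 10.8). In colon Ncr1 cells without a Ccr6 or Ccr7 UMI, Cd4 was at 23.8 CPM and Tmem132c at 3.56 CPM, against 5.95 and 2.65 CPM in the same cells of the small intestine. Tmem132c rested on 6 and 12 UMIs there, under the minimum of 20, with a ratio of 1.35 (0.415 to 3.88). The 42 colon cells with both Ccr6 and Ncr1 UMIs had a median depth of 6382 UMIs, the deepest of the gate combinations of that library, against 3088 in the 53 such cells of the small intestine. Without the cells of highest Scrublet score, a doublet caller, the log2 ratio of Cd4 in Ncr1 cells was 3.45, against 2.80 with them. Cells without any of the 3 gate genes also differed, with Krt83 at 85.8 CPM in 6051 colon cells and 24.8 CPM in 3307 small intestine cells, whereas Cd4 was at 10.3 and 10.8 CPM. Over all cells 7 of the 8 genes were at least 2-fold higher in the colon, where 5.42% of 11962 genes were, and Bend4 was 1.95-fold higher.

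**Figure D2:**
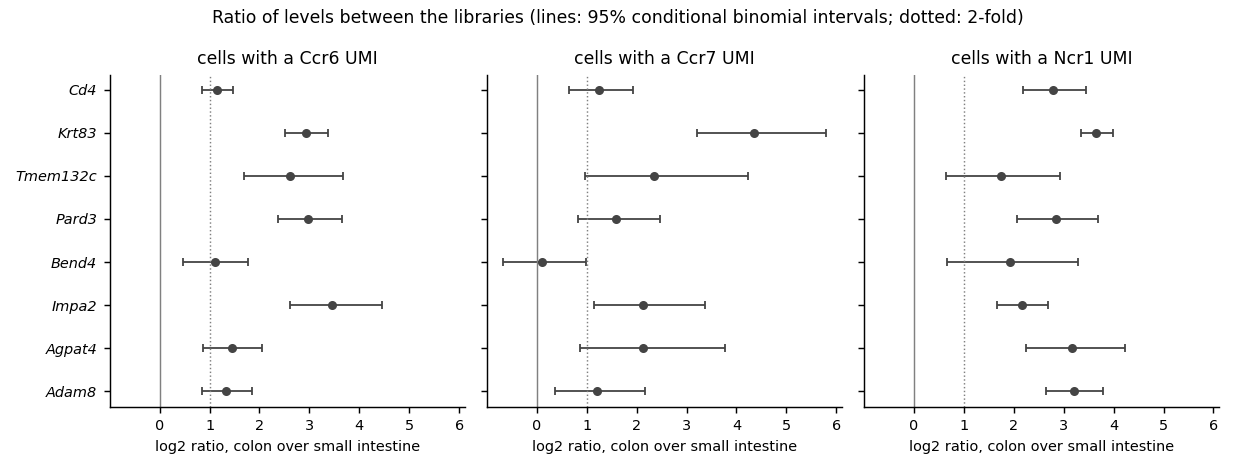
Ratio of CPM, colon over small intestine (horizontal axis, log2), of each gene in cells with a Ccr6, Ccr7 or Ncr1 UMI, with 95% conditional binomial intervals and a dotted line at 2-fold. In Ccr6 cells the log2 ratios run from 1.10 for Bend4 to 3.46 for Impa2, and in Ccr7 cells Bend4 sits at 0.10 with an interval across 0.

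Within the colon the genes fell into those that set Ccr6 cells apart from Ncr1 cells and those that hardly did. Cells with Ccr6 and no Ncr1 UMI (315) were compared with cells with Ncr1 and no Ccr6 UMI (623). Of the 8 genes, 6 were at least 2-fold higher in the Ccr6 cells, where 5.67% of 8251 genes were. Pard3 was at 141 CPM in Ccr6 cells and 14.9 CPM in Ncr1 cells, a ratio of 9.46 (6.37 to 14.5), and Bend4 at 51.9 and 6.68 CPM, a ratio of 7.77 (4.26 to 15.3). Cd4 was at 200 CPM in Ccr6 cells and 27.8 CPM in Ncr1 cells, and Tmem132c at 55.6 and 7.71 CPM, with a ratio of 7.22 for both. These 4 genes formed the group that separated the gates most.

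Agpat4 and Impa2 were intermediate, with ratios of 3.49 (2.37 to 5.24) and 2.41 (1.80 to 3.23). Krt83 and Adam8 barely separated the gates. Krt83 was at 299 CPM in colon Ccr6 cells and 253 CPM in colon Ncr1 cells, a ratio of 1.18 (1.03 to 1.35), and Adam8 was at 78.6 and 56.5 CPM, a ratio of 1.39 (1.05 to 1.83). As colon LTi-like markers these 2 genes were thus not specific against Ncr1 cells, and they marked colon cells of both gates. Both were lower in colon cells with none of the gate genes, Krt83 at 85.8 CPM and Adam8 at 30.4 CPM. Krt83 was also the gene with the highest free RNA level, 299 CPM in the colon against 62.7 CPM in the small intestine, and Adam8 had 42.3 and 8.25 CPM there. After subtraction of free RNA the same number of genes, 6, was at least 2-fold higher in colon Ccr6 than Ncr1 cells, where 6.35% of 8032 genes were.

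The small intestine showed another order. There 6 of the 8 genes were at least 2-fold higher in Ccr6 than in Ncr1 cells, where 6.5% of 9464 genes were, and the largest ratio was that of Cd4, at 97.2 CPM in 488 Ccr6 cells and 5.91 CPM in 1552 Ncr1 cells (16.4, 10.7 to 26.0). Bend4, Agpat4 and Adam8 followed with ratios of 12.1 (5.59 to 29.1), 11.7 (5.57 to 26.7) and 5.64 (3.42 to 9.45). Impa2 was at 9.89 CPM in Ccr6 and 10.7 CPM in Ncr1 cells of the small intestine, a ratio of 0.921 (0.446 to 1.76). Between Ccr7 and Ncr1 cells of the small intestine, 5 of the 6 genes with at least 20 UMIs were at least 2-fold higher in the Ccr7 cells, where 6.8% of 9161 genes were.

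**Figure D3:**
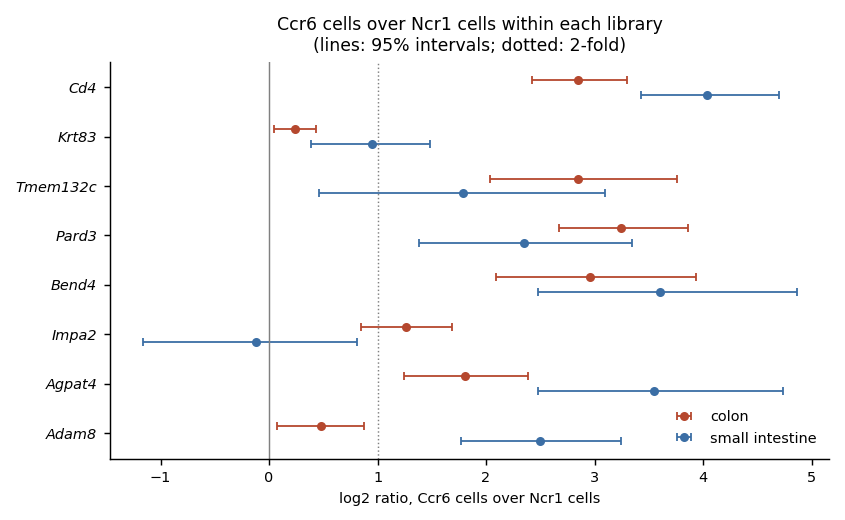
Ratio of CPM in cells with Ccr6 and no Ncr1 UMI over cells with Ncr1 and no Ccr6 UMI (horizontal axis, log2) for each gene, colon in red above small intestine in blue, with 95% conditional binomial intervals and a dotted line at 2-fold. Krt83 at 0.24 and Adam8 at 0.48 lie nearest to 0 in the colon, and Impa2 is the only gene below 0 in the small intestine, at -0.12.

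Cells were also sorted by the gene rather than by the gate, with detection at full depth. Of the 411 colon cells with a Cd4 UMI, 66.9% had a Ccr6 or Ccr7 UMI, against 12.4% of all colon cells. The share was 66.3% of the 187 Tmem132c cells and 60.5% of the 215 Bend4 cells. For Krt83, Impa2, Adam8, Pard3 and Agpat4 it lay between 27.9% and 31.8%, still above that of all cells. Pard3 belonged with Cd4 by level but not by this count: its 489 positive cells without a gate gene held 1.20 UMIs each on average, against 1.88 in its 118 positive Ccr6 cells. These cells also differed in depth: the median colon cell with a UMI of Cd4, Bend4 or Tmem132c had 3385, 3318 and 3303 UMIs, against 2797 for Krt83, 2936 for Adam8 and 2600 over all colon cells. The part of that depth in the shares was not tested. A T cell marker UMI was present in 33.3% of Cd4-positive colon cells, against 39.1% of all colon cells, and in the small intestine 12.7% of 166 Cd4-positive cells had one, against 18.5% of all. The B and plasma cell list summed to 2039 CPM in Cd4-positive and 2509 CPM in Cd4-negative colon cells, and to 30946 CPM in Cd4-positive and 6448 CPM in Cd4-negative small intestine cells, with Ms4a1 at 0 in the Cd4-positive cells of both tissues. Its part in these shares was not tested.

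After thinning to 1000 UMIs per cell, which left out 0 cells, a Cd4 UMI was seen in 15.1% of colon Ccr6 cells (54 cells, interval 11.6 to 19.3%) and in 7.58% of small intestine Ccr6 cells (41 cells). Without thinning the shares were 38.4% and 13.5%. Cells with an Il1rl1 UMI and none of the gate genes, which resemble ILC2 and should lack Cd4, gave 0.160% of 1249 colon cells (2 cells, median depth 2818 UMIs) and 0 of 104 small intestine cells (median depth 3416 UMIs), which allows a share of up to 2.88%. Cd4 in colon Ncr1 cells, at 2.71%, was above that background. For Pard3 and Impa2 the shares in colon Ncr1 cells, 1.80% and 2.86%, were below those of the Il1rl1 cells, 3.68% and 4.64%, and in colon Ccr6 cells they were 14.3% and 10.4%. The colon Il1rl1 cells held Pard3 at 36.4 CPM and Impa2 at 50.4 CPM but Cd4 at 2.50 CPM, and they serve as background for Cd4 alone. For Krt83 the thinned share was 25.5% in colon Ccr6 cells, 20.2% in colon Ncr1 cells and 5.84% in colon Il1rl1 cells. The last value describes those cells and is no background for Krt83.

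The number of the 8 genes seen in 1 cell differed in the same way. Thinned colon Ccr6 cells held 0.880 of the 8 genes on average and thinned small intestine Ccr6 cells 0.211, and at full depth the means were 2.35 and 0.471. At least 1 of the genes was seen in 59.9% of thinned colon Ccr6 cells (interval 54.7 to 65.1%) and 19.6% of small intestine ones (16.3 to 23.2%). At least 2 were seen in 22.4% and 1.48%. The colon Ncr1 mean was 0.367 and the Il1rl1 mean 0.192, both below that of colon Ccr6 cells. Since the genes were chosen as marks of CCR6+ colon cells, nothing is read from these differences.

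**Figure D4:**
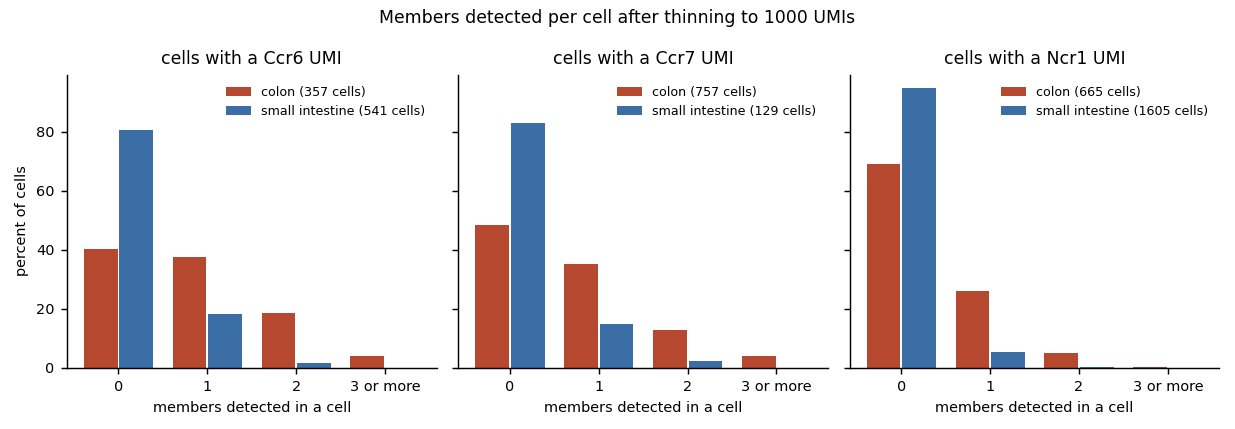
Percent of cells (vertical axis) in which 0, 1, 2 or at least 3 of the 8 genes had a UMI after each cell was thinned to 1000 UMIs, for cells of each gate, colon in red left of small intestine in blue. In Ccr6 cells 40.1% of the colon cells and 80.4% of the small intestine cells had none of the genes, and 3.92% of the colon cells had at least 3, against 0 of the 541 small intestine cells, which allows a share of up to 0.555%.

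Among colon Ccr6 cells, detection of one gene was close to independent of that of another. Over the 28 pairs, thinned cells with both genes numbered 126 in sum, against 114 if the genes were independent, a ratio of 1.10. Of the 26 pairs for which independence gave at least 1 cell, 12 lay above it. Cd4 was seen with Krt83 in 21 cells against 13.8 under independence and with Impa2 in 10 against 5.60, whereas Krt83 and Pard3 were seen together in 9 against 13. At full depth the sum was 967 against 843, a ratio of 1.15, and depth itself raises such counts.

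The wider gates held more co-detection. In thinned colon Ccr7 cells the sum was 227 against 170, a ratio of 1.34, with 22 of 28 pairs above independence, and in colon Ncr1 cells it was 39 against 29.5, a ratio of 1.32. In small intestine Ccr6 cells it was 8 against 9.44, too few to place pairs. Counts this sparse make single pairs uncertain.

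Colon Ccr6 cells with and without a Cd4 UMI differed by less than 2-fold in each of the other 7 genes. There were 137 Cd4-detected cells (median 4196 UMIs) and 220 Cd4-undetected cells (median 3114 UMIs), and detection depends on that depth. Of the 7 genes, 0 were at least 2-fold higher in the Cd4-detected cells, where 1.7% of 6637 genes were. Krt83 was at 284 CPM in Cd4-detected and 295 CPM in Cd4-undetected cells, a ratio of 0.963 (0.799 to 1.16), and Pard3 at 132 and 139 CPM, a ratio of 0.944 (0.716 to 1.24). For Tmem132c the ratio was 0.972 (0.604 to 1.55) and for Bend4 0.897 (0.543 to 1.46), and both intervals are wide. Adam8 was at 92.4 and 79.5 CPM, a ratio of 1.16 (0.821 to 1.64).

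Agpat4 and Impa2 were the 2 genes whose intervals lay above 1. Of 2697 genes with at least 20 UMIs over both groups and at least 50 CPM in the higher, 125 had such an interval. Agpat4 was at 85.4 CPM in Cd4-detected and 47.9 CPM in Cd4-undetected colon Ccr6 cells, a ratio of 1.78 (1.19 to 2.69), and Impa2 was at 116 and 78.4 CPM, a ratio of 1.48 (1.07 to 2.06). Among cells of at least 3000 UMIs, a setting chosen after the data had been seen, Agpat4 reached 2.17. The LTi-like markers summed to 11931 CPM in Cd4-detected and 10503 CPM in Cd4-undetected cells, and the T cell markers to 1051 and 1137 CPM. Of the Cd4-detected colon Ccr6 cells, 94 of 137 had no UMI of Cd3e, Cd3d, Cd3g, Trac or Trdc, and these cells had an LTi-like sum of 13152 CPM.

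In colon Ccr7 cells, 212 with a Cd4 UMI and 545 without, 1 of the 7 genes was at least 2-fold higher, where 2.09% of 8118 genes were. That was Impa2, at 146 CPM in Cd4-detected and 70.6 CPM in Cd4-undetected cells, a ratio of 2.07 (1.64 to 2.61). Tmem132c was at 78.5 and 43.5 CPM, a ratio of 1.81 (1.32 to 2.46). Of 5 genes with at least 20 UMIs in colon Ncr1 cells, 3 were at least 2-fold higher in the 49 Cd4-detected cells than in the 616 others, where 4.94% of 7274 genes were, led by Pard3 at 90.2 and 18.8 CPM, a ratio of 4.79 (2.74 to 8.22). In the small intestine the 73 Cd4-detected Ccr6 cells had 2 to 7 UMIs of each of the other genes, which sets no close limit.

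**Figure D5:**
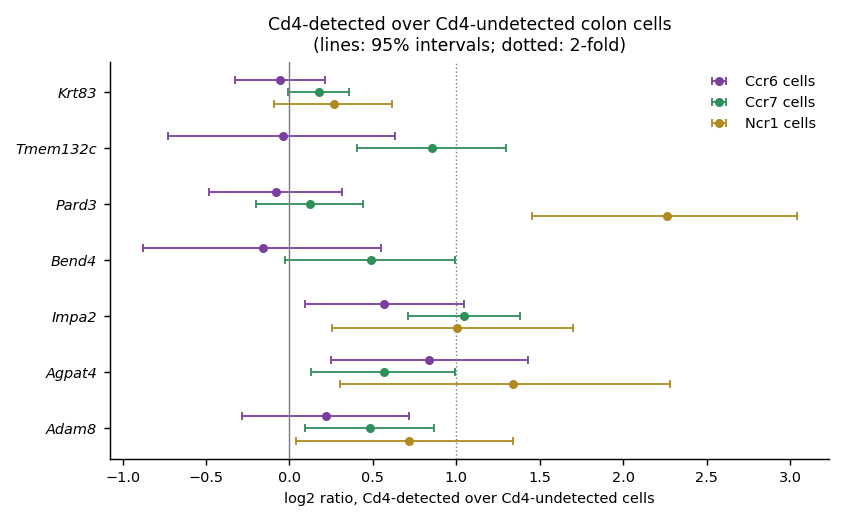
Ratio of CPM in colon cells with a Cd4 UMI over colon cells of the same gate without one (horizontal axis, log2) for the other 7 genes, with 95% conditional binomial intervals and a dotted line at 2-fold, for genes with at least 20 UMIs in the gate. In Ccr6 cells 5 of the 7 intervals include 0 and those of Impa2 and Agpat4 lie above it, and in Ncr1 cells Pard3 is at 2.26.

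The other 7 genes were also higher in colon Ccr6 cells in which no Cd4 was seen. Among Ccr6 cells with no Cd4 UMI, 220 from the colon and 468 from the small intestine, Krt83 was at 295 CPM in the colon against 39.3 CPM in the small intestine, a ratio of 7.50 (5.49 to 10.5). Pard3 was at 139 and 18.4 CPM, a ratio of 7.57 (4.79 to 12.5), and Impa2 at 78.4 and 8.36 CPM, a ratio of 9.37 (4.81 to 20.4). Agpat4 had the smallest ratio, 1.97 (1.21 to 3.27).

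Since the colon Ccr6 gate held many Ccr7 cells, the 2 receptors were separated. Of the 8 genes, 0 were at least 2-fold higher in the 181 colon cells with both receptors than in the 176 with Ccr6 alone, where 1.99% of 6637 genes were, and the ratios ran from 0.884 for Adam8 to 1.70 for Bend4. Impa2 was at 115 CPM in cells with both and 68.1 CPM in cells with Ccr6 alone, a ratio of 1.68 (1.18 to 2.42). In Ccr6 cells without Ccr7, 7 of the 8 genes were at least 2-fold higher in the colon, where 2.94% of 7482 genes were, and Bend4 was at 31.9 CPM in 176 colon cells and 20.6 CPM in 511 small intestine cells, a ratio of 1.54 (0.838 to 2.82). In the cells with both receptors, 5 of the 8 genes were at least 2-fold higher in the colon, 4 of them with an interval above 1 for the ratio, where 10.3% of 5300 genes were. Cd4 was there at 199 CPM in 181 colon cells and 179 CPM in 30 small intestine cells, a ratio of 1.11 (0.657 to 2.03), from 188 and 15 UMIs. Colon Ccr7 cells differed from colon Ncr1 cells much as Ccr6 cells did, with 6 of 8 genes at least 2-fold higher, where 5.84% of 8801 genes were, and ratios of 16.7 (7.52 to 46.2) for Tmem132c and 1.32 (1.03 to 1.71) for Adam8.

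Relatives and partners of the 8 genes were read by the listed families. The counts per family are too small to be told apart from the share over all genes, and nothing is read from them. Of 5 other polarity complex genes with at least 20 UMIs in Ccr6 cells, 0 were 2-fold higher or lower in the colon, where 3.4% of all genes were higher and 7.47% lower, with a median log2 ratio of 0.15. Cdc42, the small GTPase that binds the complex, was at 481 CPM in colon and 675 CPM in small intestine Ccr6 cells. Of 4 other acyltransferases, 0 passed 2-fold, and Agpat3 was at 62.5 CPM in the colon against 59.6 CPM in the small intestine. Of 5 other ADAM proteases, 1 was 2-fold higher, Adam19, with 24 UMIs in the colon and 5 in the small intestine.

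The inositol route differed most between its members. Impa1, the paralog of Impa2, was at 47.1 CPM in colon and 134 CPM in small intestine Ccr6 cells, a ratio of 0.351 (0.266 to 0.460), opposite to Impa2. Inpp4b, a phosphoinositide 4-phosphatase, had 45.9 CPM in colon Ccr6 cells against 2.87 CPM, from 4 UMIs, in those of the small intestine, a ratio of 16.0 (5.99 to 60.2). The other 5 of 7 lay within 2-fold. Of 6 other genes of CD4 lineage and signalling, 0 passed 2-fold between the tissues, and Lck, the kinase bound by CD4 in T cells, was at 34.3 CPM in colon and 60.3 CPM in small intestine Ccr6 cells. Lck was lower in colon Ccr6 than colon Ncr1 cells, 32.6 against 164 CPM, as was Lag3, 14.8 against 39.1 CPM, where 4.82% of all genes were 2-fold lower. No other TMEM132, BEN domain or keratin gene of the lists reached 20 UMIs in Ccr6 cells, so these families could not be read. Krt81, Krt20 and Krt7 had 0 UMIs in both tissues.

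Over 10 exclusive groups of cells, 5 in each library, the genes closest to the mean of the 8 were named by Pearson r of log2(CPM + 10), among 3979 genes with a median r of -0.14. The groups share libraries and differ in size, so r is a description. Tnip1, an inhibitor of NF-κB signalling, and Fth1, the ferritin heavy chain, had r = 0.98, and Mapkapk3, Tnfsf11, Csrp1 and Jmy had r = 0.96. Tnfsf11, which encodes RANKL, was at 1753 CPM in colon cells with Ccr6 and Ccr7 and 1208 CPM in such cells of the small intestine, and at 659 and 460 CPM in cells with Ncr1 alone. Hspa2 and Kpna1 completed the 8 nearest, with r = 0.95 and 0.94. Of the 8 genes themselves, Pard3, Tmem132c and Adam8 followed the mean of the other 7 most closely, with r = 0.93, 0.92 and 0.92, and Krt83 and Bend4 least, with r = 0.73 and 0.71.

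Genes that differed between Cd4-detected and Cd4-undetected colon Ccr6 cells were led by transcripts held by few cells. Il17a, the cytokine interleukin 17A, had 56 UMIs in 6 of 137 Cd4-detected cells, 25 of them in 1 cell, against 4 UMIs in 4 of 220 Cd4-undetected cells. Among genes spread over more cells, the chemokine Xcl1 was at 312 CPM in Cd4-detected and 108 CPM in Cd4-undetected cells, a ratio of 2.90 (2.28 to 3.71), and Ccl1 at 112 and 43.5 CPM, a ratio of 2.57 (1.74 to 3.86). Igfbp7, an insulin-like growth factor binding protein, was at 360 and 231 CPM, a ratio of 1.56 (1.29 to 1.88), and in the small intestine its ratio was 1.87 (1.36 to 2.56), while those of Xcl1 and Ccl1 there rested on 5 UMIs and 1 UMI in the Cd4-detected cells. Foxs1, Clpp, H1f0, Usp36, Cd48 and Dpm2 completed the 10 higher genes, with ratios of 1.74 to 2.64.

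Lower in the Cd4-detected cells were the interferon-induced Ifit1, Cxcl10 and Isg15 and the heat shock genes Hspa1a and Dnajb1. Ifit1 had 3 UMIs in Cd4-detected and 48 in Cd4-undetected cells, and 28 of the 48 lay in 1 cell. Hspa1a was at 361 CPM in Cd4-detected and 661 CPM in Cd4-undetected cells, a ratio of 0.547 (0.471 to 0.633), and its small intestine ratio was 0.447 (0.209 to 0.847), although it was found in 21.9% of Cd4-detected colon cells against 16.4% of the others. Isg15 was at 79.8 and 139 CPM, a ratio of 0.573 (0.412 to 0.788). Cxcl10 had a ratio of 0.455 (0.331 to 0.619) in the colon and of 1.86 (1.05 to 3.15) in the small intestine, and Ifit1, with 5 and 3 UMIs, was also higher in the Cd4-detected cells there. Ccdc47, Lncpint, Prelid2, Sars and Ddx21 were the other 5, with ratios of 0.346 to 0.558. The intervals assume that cells of a group do not vary beyond counting, which these few-cell genes go against.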

How the data were processed

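The deposited table and matrices held raw UMI counts per gene and cell, which the authors made on mm10 using Cell Ranger 3.0.2, per the submitters' processing notes. How the authors chose the cells is not given in the sources used here. Of the values in the table, 0 differed from the matrices. The 8 genes, their gene lists and the marker lists were chosen with earlier results of these data known.

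For each gate, UMIs were added up over its cells and scaled to CPM (Python 3.11.15, numpy 2.4.6, scipy 1.17.1). With 1 library per tissue no test was made. Intervals are at 95% and cover counting error only. Ratios and counts of genes use at least 20 UMIs over both groups and 2-fold. Shares of Ccr6, Ccr7, Ncr1 and Il1rl1 cells with a UMI of one of the 8 genes, genes per cell and co-detection rest on cells each thinned to 1000 UMIs (seed 1), unless full depth is named. Gates, T cell marker shares and cells positive for a gene are at full depth. A share of 0 is given with the limit that 3 counts allow. Doublets were kept, and leaving out the highest Scrublet scores (scanpy 1.11.5), 0.8% per 1000 cells, was an alternative. Named besides the 8 genes and the 3 gate genes were listed relatives, the 8 genes of closest pattern with at least 50 CPM in a group, and the first 10 genes in each direction between Cd4-detected and Cd4-undetected colon Ccr6 cells. On simulated counts for Ccr6 cells, colon over small intestine, over 8300 genes, 96.3% of intervals held the true ratio. These counts were drawn as Poisson, the model that the intervals assume. The simulation therefore checks the calculation only and says nothing on spread between cells, mice or libraries.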

Additional observations from a re-analysis of the deposited data

Results flagged for a closer look

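For 5 results the colon and the small intestine pointed in opposite directions, and none of these differences was tested, since there was 1 library per tissue. Impa2 was higher in Ccr6 than in Ncr1 cells of the colon (ratio 2.41, 1.80 to 3.23) and not in the small intestine (0.921, 0.446 to 1.76), a difference of 1.38 in log2. Krt83 was higher in Ccr7 than in Ncr1 cells of the colon (1.49, 1.31 to 1.69), against 0.811 (0.257 to 1.97) in the small intestine, a difference of 0.88 in log2. Agpat4 was higher in Cd4-detected than Cd4-undetected Ccr6 cells of the colon (1.78, 1.19 to 2.69), against 0.838 (0.214 to 2.39) in the small intestine, a difference of 1.09 in log2. Between Ccr6 cells with and without Ccr7, Agpat4 had a ratio of 1.29 (0.855 to 1.98) in the colon and 0.489 (0.0120 to 2.93) in the small intestine, a difference of 1.40 in log2, and Adam8 had 0.884 (0.625 to 1.25) in the colon and 1.86 (0.575 to 4.70) in the small intestine, a difference of -1.08 in log2. All 5 small intestine intervals include 1, and the last 2 rest on 1 and 5 UMIs in 30 small intestine cells.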

How the results depend on the processing

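Of 336 recomputed log2 ratios between the tissues, 14 settings for each of 8 genes in 3 gates, 296 stayed within the counting interval of the reported value. The setting of at least 1000 UMIs and at most 10% mitochondrial UMIs kept all 7549 colon and 5490 small intestine cells. Its ratios, counted among the 296, could not move. Bend4 in Ccr7 cells, reported at 0.10, was negative in 3 settings, at -0.15, -0.05 and -0.16, and no other ratio changed sign. No paired analysis was possible because each tissue had 1 library and no result comes from a test. Gates and genes counted after thinning to 1000 UMIs gave 3 of 4 genes with at least 20 UMIs at least 2-fold higher in colon Ccr6 cells, 3 of 3 in Ncr1 cells, 3 of 5 higher in colon Ccr6 than Ncr1 cells and 1 of 2 in the small intestine, where 3.85%, 3.48%, 7.22% and 6.23% of all genes counted were, so that fewer genes could be counted. In Ccr7 cells thinned in the same way all 8 genes kept at least 20 UMIs, and 10.1% of all genes counted were at least 2-fold higher in the colon. Bend4 and Adam8 lay under 2-fold there, with ratios of 1.17 and 1.025. Tmem132c lay at 1.95 when 3 UMIs were put for its 0 in the small intestine. Cd4, Krt83, Pard3, Impa2 and Agpat4 lay above 2-fold. Of these, Krt83 and Pard3 also had 0 UMIs in the small intestine, with 3 put in their place. Impa2 rested on 1 UMI there and Agpat4 on 2, and the Agpat4 interval of 0.689 to 23.7 includes 1. Without cells with a CD3 or any T cell receptor constant UMI, which left 112 of 357 colon and 173 of 541 small intestine Ccr6 cells, 3 of 3 genes were higher in colon Ncr1 cells (4.01% of all genes) and 1 of 1 in small intestine Ccr6 over Ncr1 cells (8.12%), and the log2 ratio of Cd4 in Ccr6 cells was 0.84 in place of 1.15. At 3-fold, 4 of the 8 genes and 1.36% of all genes were higher in colon Ccr6 cells. With at least 5 UMIs in place of 20, 5.97% of all genes were 2-fold higher there. The difference in the share of Ccr6 cells with a Cd4 UMI, 7.55 percentage points higher in the colon, was 12.4 points at 1500 UMIs, 24.9 without thinning and 20.1 with a gate of at least 2 Ccr6 UMIs. The difference in the mean number of genes per cell, 0.669, was 0.879 at 1500 UMIs and 1.88 without thinning. In cells of at least 3000 UMIs, chosen after the data had been seen, 2 of 4 genes were higher in small intestine Ccr6 than Ncr1 cells (5.81% of all genes), and 1 of 7 genes, Agpat4, was higher in Cd4-detected colon Ccr6 cells (2.05%). Agpat4 also passed in cells of at most 5000 UMIs, likewise chosen afterwards, which gave 1 of 7 (2.71% of all genes). Except in Ccr7 cells, fewer genes had 20 UMIs in the thinned counts, and the cause of these changes was not tested.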

Other observations

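Cells that held many of the 8 genes at once were nearly all from the colon. At full depth 448 of 7549 colon cells had UMIs of at least 3 of the genes, against 8 of 5490 small intestine cells. Since the genes were chosen on these libraries as marks of colon cells, nothing is read from this contrast between the tissues. Of those 448 cells, 68.5% had a Ccr6 or Ccr7 UMI, 11.2% an Ncr1 UMI and 38.2% a T cell marker UMI, the last close to the 39.1% of all colon cells. At least 5 of the genes were seen in 82 colon cells and in 0 small intestine cells, which allows a share of up to 0.0546% of them, and 78.0% of the 82 had a Ccr7 UMI. These cells were deep, with a median of 4302 UMIs for at least 3 genes and 6400 for at least 5, against 2600 over all colon cells, and the part of depth and of doublets in the counts was not tested.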
